A study of Homo sapiens with 12 samples.

Results

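The genes described here are 10 components of the Notch pathway, 3 receptors (NOTCH1, NOTCH2, NOTCH3), 3 ligands (JAG1, JAG2, DLL1) and 4 transcriptional targets (HES1, HES4, HEY1, NRARP). They were chosen by symbol, each matched a single Ensembl identifier, and they are 10 of the 62754 gene identifiers in the table. Polyadenylated RNA was sequenced from PC9, a human lung adenocarcinoma line with an activated EGFR, in 12 libraries, 3 replicate cultures for each of 4 groups. TDP1 wild-type cells were collected untreated (untreated WT), after 7 days in 1 µM erlotinib, an inhibitor of the EGFR kinase (labelled DTC), and after 28 days at that dose (labelled DTEC). The fourth group was the untreated TDP1 knockout line KO2 (KO), whose TDP1 RNA was at 10.8 CPM (counts scaled to the total of the library) against 26.3 in untreated WT. Per the labels the cells came from a subclonal PC9 line, and the cultures of a group were split from a shared flask and then grown apart. P-values therefore measure the spread between such cultures. The labels do not say whether KO2 is 1 clone, and an effect of losing TDP1 cannot be told apart from other properties of the 1 knockout line used here.

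Notch receptors are single-pass membrane proteins that are activated by Jagged or Delta-like ligands on a neighbouring cell. Ligand binding exposes the receptor to ADAM proteases and then to γ-secretase, which releases the intracellular domain. That domain enters the nucleus, binds the DNA-binding factor RBPJ together with a Mastermind-like protein, and turns on genes such as the HES and HEY families of basic helix-loop-helix repressors. In the airway epithelium the pathway is known for directing the choice between secretory and ciliated cells.

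RBPJ recognises the core letters TGGGAA, and the RefSeq promoters (GRCh38.p14, 250 bases before to 50 after the annotated start) of the target genes are shown because they are where such letters are classically described. Both strands were searched for TGGGAA and for GTGGGAA, which contains it, and matches are in capitals. Promoter entries were found for 8 of the 10 genes, and HES1 and HES4 were the 2 that held either form. NRARP, the target with the largest fall at 7 days, is shown beside them, and HEY1 had no entry.
HES1 (chr3:194135898-194136197, plus strand): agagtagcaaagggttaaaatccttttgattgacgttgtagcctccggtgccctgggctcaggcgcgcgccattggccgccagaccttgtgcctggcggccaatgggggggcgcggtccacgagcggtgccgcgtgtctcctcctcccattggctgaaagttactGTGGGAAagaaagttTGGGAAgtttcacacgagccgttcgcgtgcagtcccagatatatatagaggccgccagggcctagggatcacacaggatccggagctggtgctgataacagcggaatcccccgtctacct
HES4 (chr1:1000048-1000347, minus strand): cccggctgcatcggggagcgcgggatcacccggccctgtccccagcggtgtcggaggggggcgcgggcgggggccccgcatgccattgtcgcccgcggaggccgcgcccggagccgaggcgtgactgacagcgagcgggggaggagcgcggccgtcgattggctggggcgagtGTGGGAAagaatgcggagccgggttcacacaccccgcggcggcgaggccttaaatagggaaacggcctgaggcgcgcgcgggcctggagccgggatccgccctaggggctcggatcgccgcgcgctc
NRARP (chr9:137302222-137302521, minus strand): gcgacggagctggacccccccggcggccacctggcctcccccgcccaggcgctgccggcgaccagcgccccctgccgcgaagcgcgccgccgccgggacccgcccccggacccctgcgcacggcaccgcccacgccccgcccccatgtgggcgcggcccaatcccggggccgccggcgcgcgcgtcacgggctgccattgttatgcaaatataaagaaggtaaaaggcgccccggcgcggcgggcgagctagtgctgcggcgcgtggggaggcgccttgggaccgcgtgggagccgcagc
In HES1 the matches began 84 and 70 bases before the start, and the first of them extended to GTGGGAA. In HES4 the single match began 76 bases before the start and also extended to GTGGGAA. Of 35116 RefSeq promoters of this length, 24.0% held TGGGAA and 6.25% held GTGGGAA. A match is a description of the letters and does not show binding, and the absence of one in NRARP says only that these letters are not in this window.

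Library totals ran from 25572691 to 38373679 estimated counts, and 3 counts corresponded to 0.0824 to 0.115 CPM, a floor that covers counting error only. Of the epithelial markers EPCAM, CDH1, KRT7, KRT8, KRT18, KRT19, NKX2-1, NAPSA and SFTPB, 7 of 9 reached a mean of 1 CPM in each group, though not the same 7. SFTPB was at 1.51 CPM in untreated WT and 0.0699 in DTC, and NAPSA at 0.127 and 1.62. KRT8 was at 4020 CPM in untreated WT and 1870 in DTC, and KRT18 at 2930 and 1180, while KRT7 was at 1960 and 2070. NKX2-1, the lung lineage factor, was at 0.0117 to 0.366 CPM in the 4 groups. None of 5 neuroendocrine markers reached 1 CPM in any group, and PTPRC, the pan-leukocyte marker, was at 0.0896 CPM or less. Of the other leukocyte markers, CD3E was at 0.0382 CPM or less, but CD68 was at 27.5 to 46.4 CPM over the 4 groups. CD68 was at 29.8 CPM in untreated WT and 46.4 in DTC, and LYZ at 0.217 and 1.36. Libraries differed in their root mean square log2 deviation from the group mean. DTC replicate 1 was highest (0.412), and untreated WT replicate 1 (0.333) was near DTEC replicate 1 (0.331) and DTC replicate 2 (0.33). The replicate 1 libraries of untreated WT and DTC, named below as those that stood apart, were picked after their values were seen. Across 16410 tested genes with a known GC content, the deviation of a library from its group mean changed by -0.109 log2 units per 10 percentage points of GC in untreated WT replicate 1 and by -0.132 in DTC replicate 1, within an overall range of -0.132 to 0.125. The upper end was DTEC replicate 3, and leaving out that library changed no call of a Notch gene. Untreated WT replicate 1 was the lowest of its group for 9 of the 9 tested Notch genes. HES4, whose longest transcript is 73.9% GC, was in that library at 36.6% of the mean of the other 2 untreated WT libraries, and NOTCH1 (62.9% GC) at 55.0%. JAG1 (49.6% GC) was at 94.5%, HES1 (49.9% GC) at 95.6% and NRARP (67.3% GC) at 88.5%. In DTC replicate 1, HES4 was at 13.1% and NOTCH2 (49.4% GC) at 169% of the other DTC libraries. The part that GC content has in these differences was not tested, and where leaving out both untreated WT replicate 1 and DTC replicate 1 changed a call of 1 of the 10 genes, the value without them is given.

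**Figure D1:**
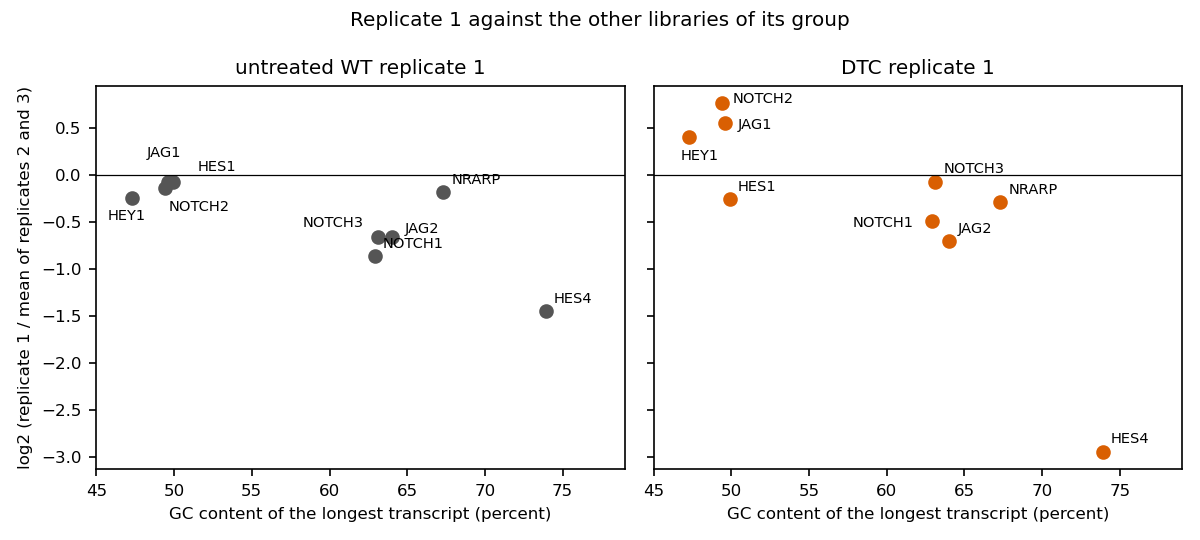
Log2 ratio of replicate 1 to the mean of replicates 2 and 3 (vertical axis) for the 9 tested Notch genes against the GC content of the longest transcript in percent (horizontal axis), in untreated WT (left) and DTC (right). Each point is a gene. In untreated WT all 9 points lie below 0 and HES4, at 73.9% GC, is lowest at -1.45, while in DTC NOTCH2, JAG1 and HEY1 lie above 0 and HES4 is at -2.94.

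Levels are given as CPM on TMM-scaled totals, and per kilobase of exon (CPM per kb) where genes are compared with each other. Changes are log2 fold changes with their standard error (SE) from edgeR's quasi-likelihood test, with p-values adjusted by the Benjamini-Hochberg method over the 17115 genes that passed a filter on low counts, and a call means an adjusted p below 0.05. These are bulk libraries, so fewer cells that express a gene and less of its RNA per cell cannot be told apart. A single untreated WT group served both times on drug, so the drug and time in culture cannot be told apart either. The labels give 1 batch for all libraries, so no comparison within separate batches was possible.

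Of the 10 genes, 9 passed the filter. DLL1, a Delta-like ligand (ENSG00000198719, chr6:170282206-170306565), had at most 3 counts in any library and 0 in the 3 DTC libraries, which is at or under the floor in every group, and no fold is given for it. At 7 days of drug 8 of the 9 tested genes were called, 7 lower and 1 higher. Over all 17115 tested genes 67.3% were called, 33.3% lower and 34.0% higher, so calls were common throughout the table, and those of the Notch genes lay mostly on the lower side. With total counts only in place of TMM factors 6 were called in DTC, 5 lower and 1 higher. The median log2 fold change of the 9 genes was -0.91, beside 0.06 for all tested genes. At 28 days 6 of 9 were called, 5 lower and 1 higher, where 52.3% of all genes were called, 26.3% lower and 26.0% higher. Here the median of the 9 was -0.97, beside 0.02 for all genes. These comparisons, and that of KO, share the untreated WT libraries. From 7 to 28 days 4 of 9 were called, 3 higher and 1 lower, against 55.4% of all genes, 28.8% higher and 26.6% lower. In KO 2 of 9 were called, both higher, where 4.31% of all genes were called, 2.76% higher and 1.55% lower.

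**Figure D2:**
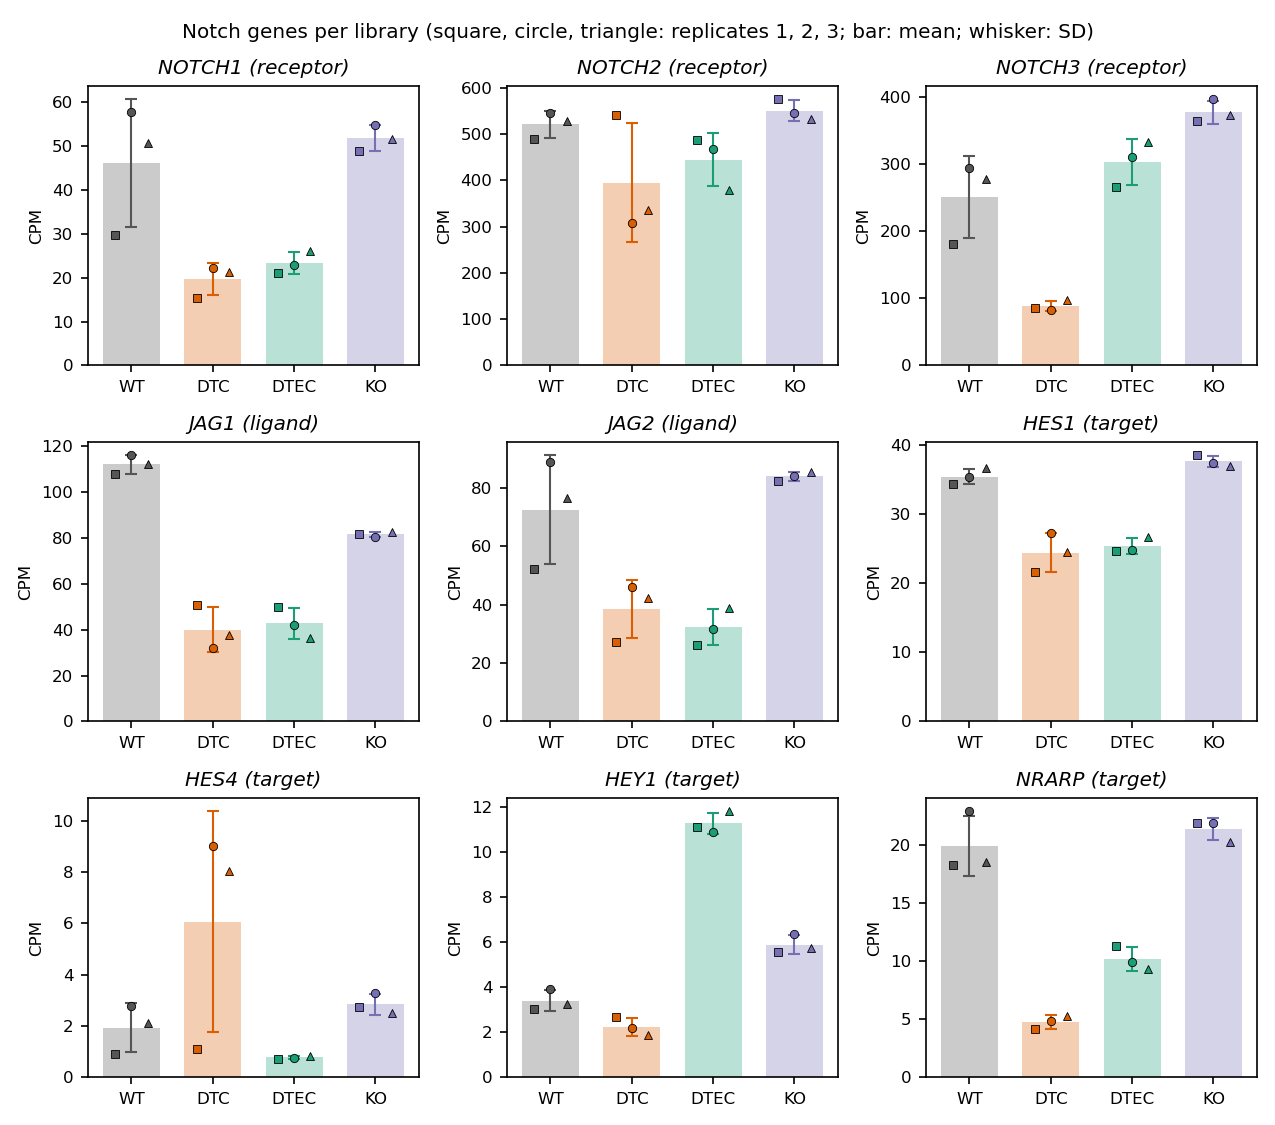
CPM (vertical axis, from 0, separate scale for each gene) of the 9 tested Notch genes in each library, by group. Bars are means over 3 libraries, whiskers are SD, and squares, circles and triangles are replicates 1, 2 and 3. NRARP and JAG1 are lower in all DTC and DTEC libraries than in all untreated WT libraries, NOTCH3 is low in DTC alone among the 4 groups, and HEY1 is highest in DTEC.

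Among the receptors, NOTCH3 had the largest change at 7 days and NOTCH1 at 28 days. NOTCH3 (ENSG00000074181, chr19:15159038-15200981) is a receptor best known from vascular smooth muscle and also expressed in epithelial tumours. It was at 181, 294 and 278 CPM in the untreated WT libraries, 85.8, 82.9 and 97.5 for DTC, 266, 310 and 333 for DTEC and 363, 396 and 372 for KO. All DTC libraries lay below all others, DTEC overlapped untreated WT, and all KO libraries lay above untreated WT. The fall in DTC was -1.50 (SE 0.157, adjusted p 1.06e-06), to 35.4% of the untreated WT mean. From DTC to DTEC NOTCH3 rose by 1.77 (SE 0.158, adjusted p 5.29e-07), a 3.41-fold difference. DTEC was not called against untreated WT (0.27, SE 0.153, adjusted p 0.151), but it was with total counts only (0.44, adjusted p 0.031), with upper-quartile factors (0.39, adjusted p 0.0487) and with an adjustment for GC content (0.48, adjusted p 0.00388).

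NOTCH1 (ENSG00000148400, chr9:136494433-136545786), the receptor most studied in T-cell leukaemia and in squamous epithelium, was lower at both times on drug. Its CPM was 29.8, 57.8 and 50.6 in untreated WT, 15.4, 22.2 and 21.2 for DTC, 21.1, 22.8 and 26.1 for DTEC and 48.9, 54.8 and 51.5 for KO. No treated library reached the lowest untreated WT library, which was replicate 1. The log2 fold change was -1.23 in DTC (SE 0.205, adjusted p 0.000121) and -0.98 in DTEC (SE 0.203, adjusted p 0.00118). Without untreated WT replicate 1 the DTC value was -1.44. DTC and DTEC overlapped each other and were not called apart (0.25, SE 0.205, adjusted p 0.317), although the adjustment for GC content gave a call (0.42, adjusted p 0.00855).

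NOTCH2 (ENSG00000134250, chr1:119911553-120069626) is a broadly expressed receptor. It read 489, 546 and 529 CPM for untreated WT, 542, 307 and 335 for DTC, 486, 468 and 379 for DTEC and 575, 545 and 532 for KO. In DTC, replicate 1 was inside the untreated WT range and the other 2 libraries were far below it. NOTCH2 was not called in DTC (-0.40, SE 0.173, adjusted p 0.0528), and without DTC replicate 1 the value was -0.66 with an adjusted p of 2.42e-05. It was also called with no count filter (adjusted p 0.00941), with the adjustment for GC content (adjusted p 0.0339) and without both replicate 1 libraries of untreated WT and DTC (-0.71, adjusted p 5.01e-05). All 3 DTEC libraries were below all untreated WT libraries, and this was not a call (-0.23, SE 0.173, adjusted p 0.279) except without both replicate 1 libraries of untreated WT and DTC (-0.26, adjusted p 0.0363). DTEC and DTC overlapped and were not called apart (0.17, SE 0.173, adjusted p 0.422), but without those libraries the value was 0.45 (adjusted p 0.00128). None of the 12 deposited NOTCH2 values was a whole number, as arises when reads are shared out among similar genes, and the human-specific copies NOTCH2NLA, NOTCH2NLB and NOTCH2NLC are near-identical to part of it. NOTCH2NLA was at 20.4 CPM in untreated WT and rose by 0.54 in DTC (adjusted p 0.00142) and 0.42 in DTEC (adjusted p 0.0113), so how reads were divided between NOTCH2 and its copies is uncertain.

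Per kilobase of exon, the summed level of the 3 receptors was 62.2 ± 9.67 CPM per kb (SD, n = 3) for untreated WT, 34.8 ± 7.15 for DTC, 60.9 ± 1.92 for DTEC and 77.9 ± 1.82 for KO. NOTCH2 made up 50.5% ± 5.51 of receptor RNA in untreated WT and 66.4% ± 7.62 in DTC, with no overlap. The share of NOTCH3 was 42.5% ± 4.28 in untreated WT, 27.9% ± 5.75 for DTC, 52.9% ± 5.37 for DTEC and 51.5% ± 1.53 for KO. For each NOTCH3 difference from untreated WT the exact permutation test (two-sided, unadjusted) gave p = 0.1, the smallest value that 3 libraries against 3 allow. NOTCH1 was the smallest share throughout, at 7.01% ± 1.25 in untreated WT and 3.69% ± 0.408 in DTEC. Which of NOTCH2 and NOTCH3 was the larger in DTEC and KO depended on the length used. With the union of exons NOTCH2 was at 43.4% in DTEC, and with the longest transcript it was at 51.0% beside 45.8% for NOTCH3. In KO the same change of length moved NOTCH2 from 42.1% to 49.7% and NOTCH3 from 51.5% to 44.6%.

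**Figure D3:**
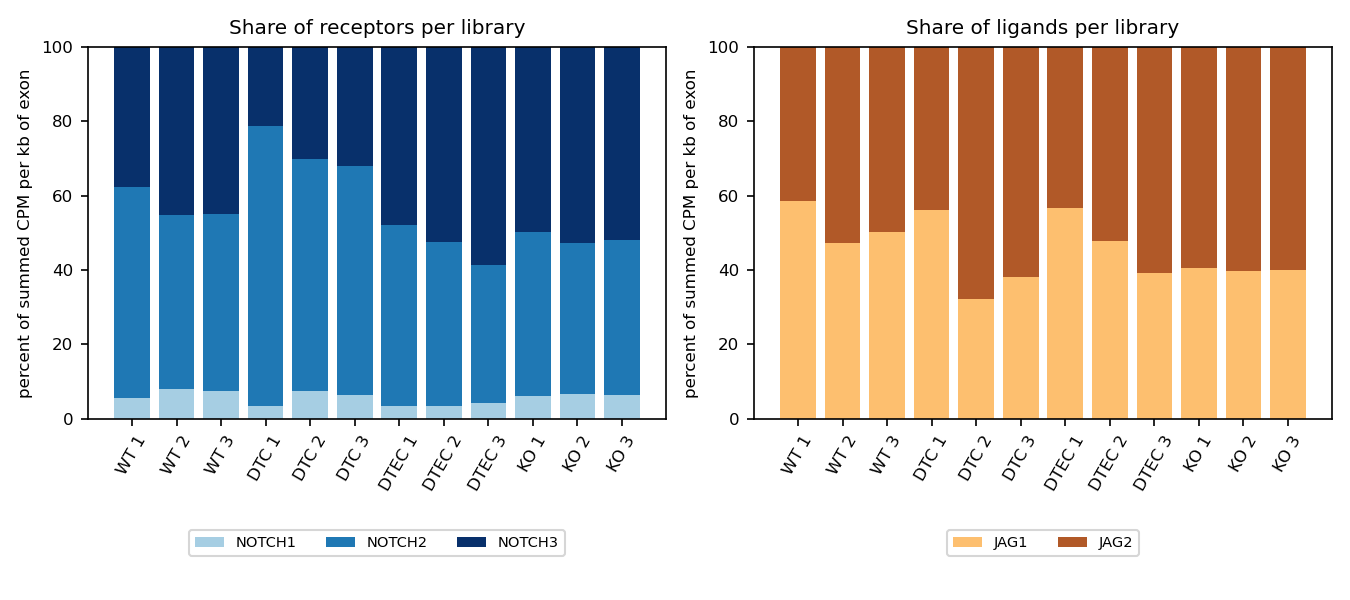
Share of each receptor (left) and each Jagged ligand (right) in the summed CPM per kb of exon, in percent (vertical axis), for each of the 12 libraries. The DTC libraries have the largest NOTCH2 share, 61.6% to 75.2%, against 46.8% to 56.8% in untreated WT, and JAG1 ranges more widely within DTC (32.2% to 56.2%) than within KO (39.7% to 40.6%).

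JAG1 and JAG2 were lower at both times on drug. JAG1 (ENSG00000101384, chr20:10637684-10673999), a Jagged ligand whose loss causes Alagille syndrome, was at 108, 116 and 112 CPM in untreated WT and fell to 50.7, 31.8 and 37.6 in DTC. It stayed at 49.9, 42.2 and 36.5 CPM in DTEC. The KO libraries, at 81.8, 80.4 and 82.6 CPM, lay between untreated WT and the treated groups without touching either. The fold change was -1.49 in DTC (SE 0.152, adjusted p 8.11e-07) and -1.39 in DTEC (SE 0.151, adjusted p 4.04e-06). DTEC and DTC overlapped and were not called apart (0.10, SE 0.150, adjusted p 0.596), and this value was 0.29 with an adjusted p of 0.0398 without DTC replicate 1, and 0.28 (adjusted p 0.0463) without untreated WT replicate 1 as well. In KO the difference of -0.46 (SE 0.148) missed the threshold in the fit of all libraries (adjusted p 0.109). It was called when these 2 groups were fitted alone (-0.43, adjusted p 0.000219), with no count filter (-0.44, adjusted p 0.0299) and without both replicate 1 libraries that stood apart (-0.47, adjusted p 0.0236). In the GENCODE 29 annotation 79 bases of JAG1 exon overlap an opposite-strand gene, and whether the counting used strand is not given in the sources used here.

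JAG2 (ENSG00000184916, chr14:105140981-105168824), the second Jagged ligand, read 52.2, 88.7 and 76.5 CPM for untreated WT, 27.2, 46.0 and 42.3 for DTC, 26.3, 31.7 and 38.7 for DTEC and 82.3, 83.9 and 85.2 for KO. Treated libraries did not overlap untreated WT, whose replicate 1 was again the lowest. JAG2 fell by 0.91 on the log2 scale in DTC (SE 0.211, adjusted p 0.00175) and by 1.17 in DTEC (SE 0.213, adjusted p 0.000456). With total counts only the DTC value was -0.56, still a call (adjusted p 0.0324). No call was made between DTEC and DTC (-0.26, SE 0.212, adjusted p 0.324) or in KO (0.21, SE 0.208, adjusted p 0.675). Without both replicate 1 libraries that stood apart the DTEC against DTC value was -0.47 and a call (adjusted p 0.00734). In GENCODE 29, 469 bases of JAG2 exon overlap a gene on the same strand, AL512356.1, so reads there cannot be assigned by strand. Summed per kb, JAG1 and JAG2 were at 23.4 ± 3.35 in untreated WT, 10.3 ± 0.530 for DTC, 9.65 ± 0.283 for DTEC and 21.9 ± 0.294 for KO.

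The targets did not move as a block. NRARP (ENSG00000198435, chr9:137300482-137302251), a small ankyrin-repeat protein that is induced by Notch and limits Notch signalling, had the largest fall of the 9 tested genes in DTC. Its CPM was 18.3, 22.9 and 18.5 in untreated WT, 4.16, 4.86 and 5.31 for DTC, 11.3, 9.97 and 9.32 for DTEC and 21.9, 21.9 and 20.3 for KO. The 3 untreated WT, 3 DTC and 3 DTEC libraries formed 3 ranges that did not overlap. NRARP fell by 2.06 in DTC (SE 0.134, adjusted p 9.03e-09), to 24.0% of untreated WT, and was then 1.09 higher in DTEC than in DTC (SE 0.134, adjusted p 1.08e-05). At 28 days it remained below untreated WT (-0.97, SE 0.127, adjusted p 2.19e-05), at 51.1% of its level. The adjustment for GC content brought that last value to -0.63 (adjusted p 0.00589).

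HES1 (ENSG00000114315, chr3:194136145-194138732), the repressor most widely used as a readout of Notch, showed small changes with little spread. The libraries read 34.4, 35.3 and 36.6 CPM for untreated WT, 21.6, 27.2 and 24.5 for DTC, 24.6, 24.8 and 26.7 for DTEC and 38.5, 37.4 and 37.0 for KO. Every treated library was below every untreated one. The fall was 0.54 on the log2 scale in DTC (SE 0.0990, adjusted p 0.000254) and 0.48 in DTEC (SE 0.0990, adjusted p 0.000971). With total counts only the DTC value was -0.18 and no longer called (adjusted p 0.119). DTEC and DTC were not called apart (0.05, SE 0.0993, adjusted p 0.664), and the sign of that small value changed under 6 alternatives.

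HEY1 (ENSG00000164683, chromosome 8) was the 1 member above untreated WT by the test at 28 days. HEY1 is a HES-related repressor that can also respond to BMP and TGF-β signals. It was at 3.05, 3.91 and 3.26 CPM for untreated WT, 2.67, 2.18 and 1.88 for DTC, 11.1, 10.9 and 11.8 for DTEC and 5.55, 6.38 and 5.75 for KO. The 4 groups did not overlap, in the order DTC, untreated WT, KO, DTEC. The rise in DTEC was 1.72 over untreated WT (SE 0.156, adjusted p 7.38e-07) and 2.33 over DTC (SE 0.162, adjusted p 4.89e-08), a 5.02-fold difference. In DTC HEY1 was lower than in untreated WT (-0.60, SE 0.165, adjusted p 0.00475), a call that was lost with total counts only (-0.25, adjusted p 0.187) and with upper-quartile factors (-0.32, adjusted p 0.0943).

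HES4 (ENSG00000188290, chr1:998962-1000172), a close relative of HES1, was the 1 member called higher at 7 days, and its libraries disagreed. It was at 0.896, 2.77 and 2.13 CPM for untreated WT, 1.12, 9.01 and 8.06 for DTC, 0.731, 0.764 and 0.852 for DTEC and 2.74, 3.30 and 2.52 for KO. DTC replicate 1 fell inside the untreated WT range, while the other 2 DTC libraries were above every library of the other groups. The log2 fold change in DTC was 1.66 (SE 0.574, adjusted p 0.0221). Without DTC replicate 1 it was 2.18 (adjusted p 1.09e-05), and the call was lost without DTC replicate 2 (adjusted p 0.089), without DTC replicate 3 (0.0702) or without untreated WT replicate 1 (0.0631). HES4 was lower in DTEC than in DTC (-2.95, SE 0.629, adjusted p 0.00172), which kept its call under every alternative tried. All DTEC libraries were below all untreated WT libraries, a difference of -1.29 (SE 0.643) with an adjusted p of 0.112. That difference was called with no count filter (5.25e-05), in DESeq2 (0.042), with the 2 groups fitted alone (0.0204) and without both replicate 1 libraries that stood apart (-1.61, adjusted p 3.57e-05). HES1 and HES4, the pair with the RBPJ letters in the windows printed above, were thus called in opposite directions in DTC.

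**Figure D4:**
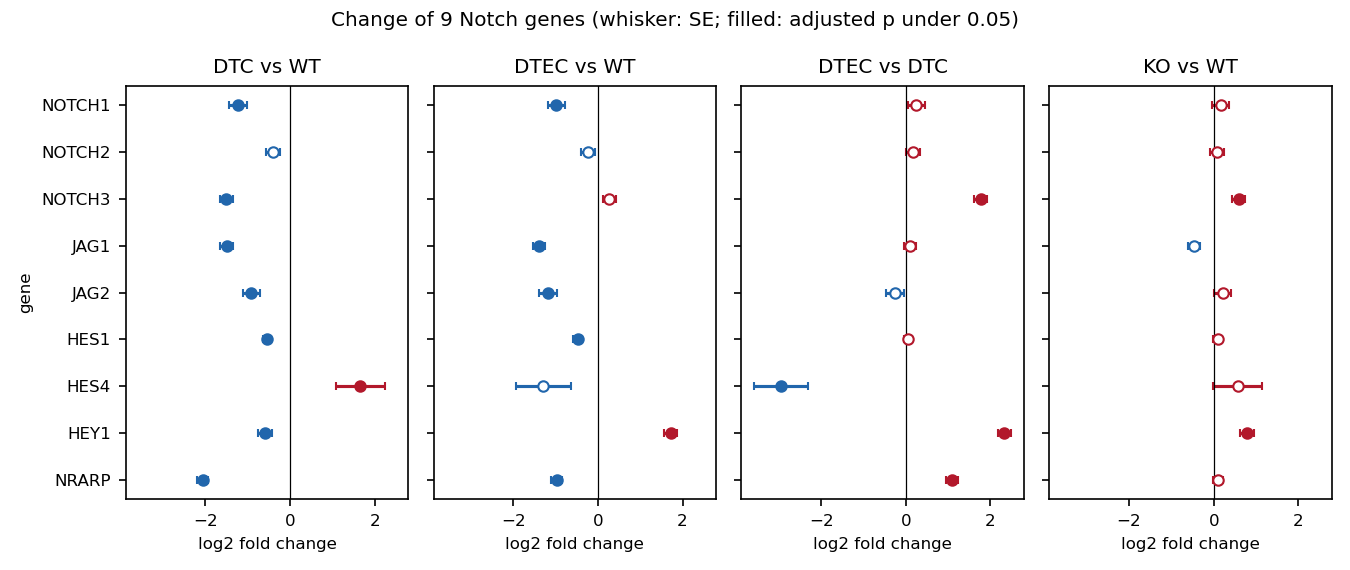
Log2 fold change (horizontal axis) of the 9 tested Notch genes in 4 comparisons, with whiskers for the SE. Filled points have an adjusted p under 0.05. The DTC panel has 7 filled points below 0 and HES4 above 0, the DTEC against untreated WT panel has HEY1 as its 1 filled point above 0, and the KO panel has NOTCH3 and HEY1 filled.

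The TDP1 knockout line was compared with untreated WT to see which of these genes differed without drug. NOTCH3 was higher (0.59, SE 0.153, adjusted p 0.0455), at 150% of untreated WT, and HEY1 was higher (0.79, SE 0.157, adjusted p 0.0105), at 173%. The NOTCH3 call did not hold without untreated WT replicate 1 (0.41, adjusted p 0.15) or 3 (0.0864), without KO replicate 1 (0.111), 2 (0.17) or 3 (0.132), with the 2 groups fitted alone (0.122), or with the adjustment for GC content (0.41, adjusted p 0.0759). The HEY1 call was lost without untreated WT replicate 1 (0.0584) or 3 (0.0542) or without KO replicate 2 (0.0589). Its value stayed between 0.73 and 0.92. The remaining 7 tested genes were not called. NRARP differed by 0.10 (SE 0.124, adjusted p 0.741) and HES1 by 0.09 (SE 0.0982, adjusted p 0.722), although the HES1 libraries did not overlap. In all, 4 of the 9 genes had KO libraries that did not overlap untreated WT, as had 35.7% of all tested genes. The corresponding counts were 7 of 9 in DTC against untreated WT (68.9% of all genes), 8 of 9 in DTEC against untreated WT (62.4%) and 4 of 9 in DTEC against DTC (56.7%).

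Per kilobase, NOTCH2 and NOTCH3 were the most abundant of the 10 genes in untreated WT, at 31.0 and 26.7 CPM per kb, and their libraries overlapped. HES1 followed at 17.2 CPM per kb. JAG1 at 12.1, JAG2 at 11.3 and NRARP at 11.3 overlapped as well, NOTCH1 was at 4.44, and HES4 (1.73) and HEY1 (1.05) were low. In DTC HES4 reached 5.42 CPM per kb, above the means of NRARP (2.70) and JAG1 (4.31), but not in replicate 1, where it was low. In DTEC HEY1 was at 3.48 CPM per kb, above NOTCH1 at 2.25, and NOTCH3 was at 32.3. These are group means per kb of the union of exons, and the order of NOTCH2 and NOTCH3 depends on the length as given above. JAG1 has 9298 bases in the union of exons and 5940 in its longest transcript, and HES4 has 1118 and 1040. With the longest transcript the order of JAG1 and HES4 in DTC was reversed. In untreated WT JAG1 then overlapped neither JAG2 nor NRARP, and NOTCH2 and NOTCH3 did not overlap.

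The rest of the pathway was followed with 69 further genes in 8 roles, of which 60 were tested. In DTC 14 rose and 29 fell, so 71.7% were called, beside 67.3% of all genes, and their median was -0.26 beside 0.06. With total counts only 23 of 42 called were higher in DTC, so the balance of directions depended on the scaling. In DTEC 19 rose and 13 fell (53.3% called, median 0.06 beside 0.02 for all genes). From DTC to DTEC 24 rose and 7 fell (51.7%, median 0.18 beside -0.01), and in KO 3 rose and 0 fell (5.00%). Genes listed at or under 3 counts in every library were DLK1, RBPJL, TLE4, DTX1, DTX3, HES3, HES5, HEYL and HELT.

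In the nuclear complex all 9 tested genes were called in DTC, 8 lower and 1 higher, where 33.3% of all tested genes were lower and 34.0% higher. With total counts only 6 were lower and 1 higher. RBPJ, MAML1 and MAML3 were picked for the DTC comparison after their values were seen. RBPJ itself fell from 75.6 to 54.7 CPM (-0.47, adjusted p 0.0114) and was back at 75.1 CPM in DTEC (-0.01, adjusted p 0.964); its DTC call was lost with total counts only (-0.11, adjusted p 0.509) and with upper-quartile factors (-0.18, adjusted p 0.257). The co-activators MAML1 and MAML3 fell by 1.02 and 0.96 in DTC. KAT2A, an acetyltransferase, fell by 1.13 (adjusted p 6.96e-08) and was at -0.91 in DTEC (adjusted p 1.59e-06), and its relative KAT2B was the 1 that rose (1.71, adjusted p 6.77e-06). From DTC to DTEC 7 of the 9 rose, where 28.8% of all genes did, and KAT2B fell by 2.23 (adjusted p 1.50e-06). MAML2 and MAML3 then stood above untreated WT, by 1.17 (adjusted p 4.81e-05) and 0.76 (adjusted p 2.78e-05). MAML1 was still below it in DTEC (-0.38, adjusted p 0.0108). MAML3 was 1.72 higher in DTEC than in DTC (adjusted p 1.48e-08).

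Co-repressors that hold RBPJ targets silent split in the same comparison, with 2 higher and 6 lower of 11 tested in DTC (72.7% called, near the 67.3% of all genes), or 4 and 5 with total counts only. TLE3 fell by 1.73 (adjusted p 2.32e-08) and TLE2 rose by 2.45 (adjusted p 3.30e-09), both Groucho-family proteins that HES factors recruit. TLE2 was at 5.44 CPM for untreated WT, 29.7 for DTC, 28.9 for DTEC and 16.2 for KO, where it rose by 1.58 (adjusted p 1.92e-05). In DTEC CTBP1 fell by 0.86 (adjusted p 0.000433) and TLE2 was 2.41 higher (adjusted p 1.74e-08).

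Enzymes that act on ligands and receptors also moved singly. NEURL1B, a ubiquitin ligase of the Neuralized family that promotes ligand endocytosis, was at 1.85 CPM for untreated WT, 35.8 for DTC, 11.3 for DTEC and 6.70 for KO. It rose by 4.27 in DTC (adjusted p 4.40e-11), 2.60 in DTEC (adjusted p 9.98e-09) and 1.85 in KO (adjusted p 7.44e-06). NEURL1 went the other way in DTC (-1.27, adjusted p 0.000221) and DTEC (-1.32, adjusted p 0.000295). Of the 8 proteases and γ-secretase subunits, 4 rose and 3 fell in DTC (87.5% called, beside 67.3% of all genes), and 5 rose and 1 fell in DTEC (75.0%, beside 52.3%). The alternative subunits APH1B and PSEN2 were called in opposite directions, at 2.27 (adjusted p 2.27e-05) and -1.56 (adjusted p 5.66e-09) in DTC and at 1.69 (adjusted p 0.000578) and -0.90 (adjusted p 2.91e-06) in DTEC. None of the 12 deposited PSEN2 values was whole.

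Of 6 genes listed under glycosylation and folding 3 fell and 0 rose in DTC, a smaller share than the 67.3% of all genes called. With total counts only the numbers were 2 and 1. One of the 3 was FURIN (-0.35, adjusted p 0.00878), which is a protease and not a glycosylation enzyme. POFUT1, which adds the O-fucose that receptors need, fell by 1.07 (adjusted p 7.66e-07), and POGLUT1, which adds O-glucose, by 0.84 (adjusted p 6.88e-05). In DTEC POFUT1 was still lower (-0.53, adjusted p 0.000846), and the fringe enzyme LFNG, which changes ligand preference, rose from 3.28 CPM in untreated WT to 7.92 (1.27, adjusted p 0.000583). Among inhibitors and turnover genes 1 rose and 5 fell of 10 tested in DTC (beside 67.3% of all genes called), a balance that turned to 4 higher and 3 lower with total counts only, with ITCH at -1.12 (adjusted p 1.52e-05) and DTX3L at 1.08 (adjusted p 4.98e-06). None of the ITCH values was whole. In DTEC NUMBL fell by 1.07 (adjusted p 4.38e-05) and DTX4 rose by 1.04 (adjusted p 3.19e-06).

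DNER, an atypical Notch ligand, was at 42.3 CPM in untreated WT and rose in KO to 66.9 (0.66, adjusted p 0.0137). DLL4 rose in DTC, from 0.271 to 1.05 CPM (1.96, adjusted p 0.00883), and was lower again in DTEC (-3.28 against DTC, adjusted p 0.000838). Its DTEC level of 0.106 CPM (SD 0.0919) was at the floor of 3 counts, so the size of that fall is uncertain. NOTCH2NLC rose in DTC (1.18, adjusted p 0.00401) and NOTCH2NLB in DTEC (0.75, adjusted p 0.0377), with the same uncertainty of read sharing as NOTCH2. DLL3 fell in DTEC by 1.10 (adjusted p 0.046), from a level of 0.864 CPM, and this call was lost with total counts only (0.0834), with upper-quartile factors (0.071), with the adjustment for GC content (0.173) and without both replicate 1 libraries that stood apart (0.0618). Of 4 tested HES and HEY relatives, HES2 rose from 0.540 CPM in untreated WT to 13.0 in DTC (4.60, adjusted p 1.21e-07) and was at 3.03 in DTEC (2.49, adjusted p 9.97e-05). From DTC to DTEC it fell by 2.11 (adjusted p 7.32e-05). Whole numbers made up 3 of the 12 HES2 values. HES7 fell from 0.859 CPM in untreated WT to 0.361 in DTC (-1.23, adjusted p 0.0157) and 0.13 in DTEC (-2.64, adjusted p 0.00027). That DTEC level was near the floor of 3 counts, so the size of the fall is uncertain. The DTC call of HES7 was lost with total counts only (adjusted p 0.0696), with upper-quartile factors (0.0563) and without both replicate 1 libraries that stood apart (0.0544).

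**Figure D5:**
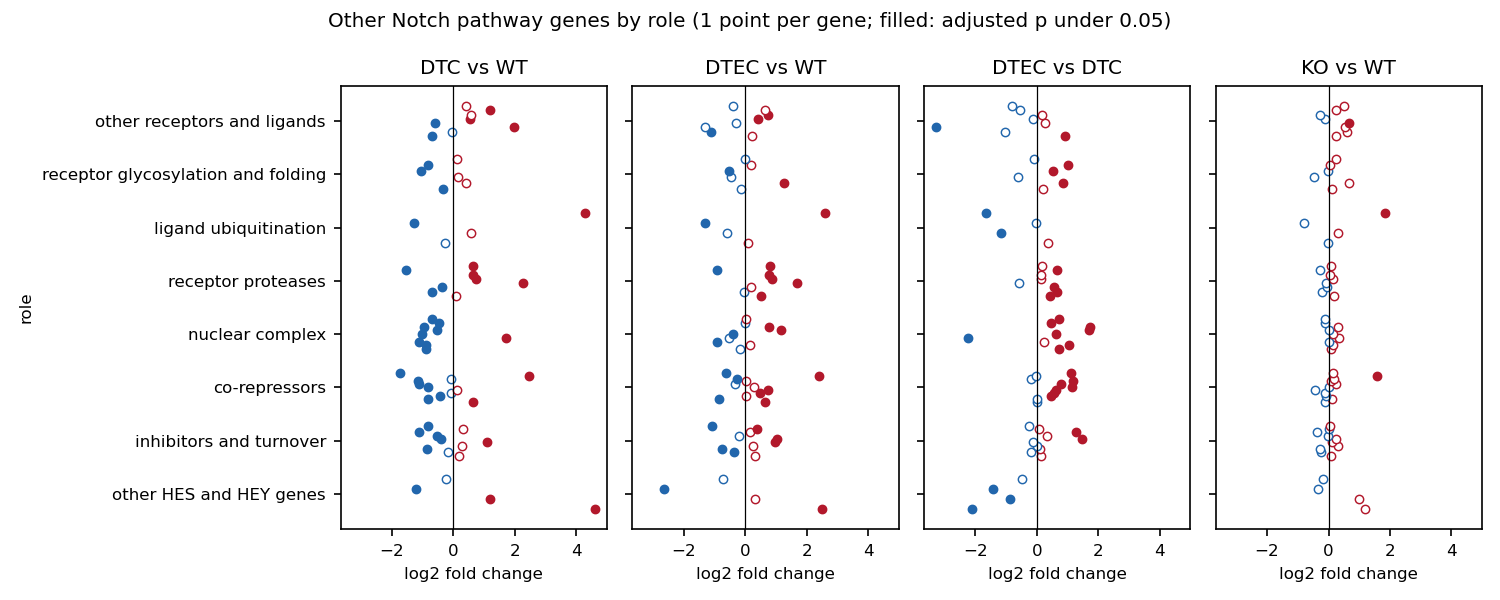
Log2 fold change (horizontal axis) of the 60 other tested Notch pathway genes by role (vertical axis) in 4 comparisons, 1 point per gene, filled where the adjusted p is under 0.05. Nuclear complex genes lie below 0 in DTC except KAT2B, and above 0 from DTC to DTEC except KAT2B, and the KO panel has 3 filled points, NEURL1B, TLE2 and DNER.

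Markers of airway cell types that Notch is known to steer were read beside these genes. MUC5B, a mucin of secretory cells, was at 26.2 ± 7.37 CPM (SD, n = 3) for untreated WT, 0.251 ± 0.124 for DTC, 217 ± 63.3 for DTEC and 28.8 ± 3.06 for KO. SPDEF, a transcription factor of goblet cells, was at 7.44 ± 0.950, 1.59 ± 0.623, 17.1 ± 4.91 and 14.2 ± 1.74 CPM in the same order. SPDEF fell in DTC (-2.21, adjusted p 4.92e-06), rose in DTEC (1.21, adjusted p 0.000607) and rose in KO (0.93, adjusted p 0.0365). Of the 6 club and goblet markers, SCGB3A1 and SCGB3A2 were at 0 in all groups, SCGB1A1 at 0.157 CPM or less and MUC5AC at 0.253 or less. The sum of the list, carried by MUC5B and SPDEF, was 24.9 to 41.0 CPM in untreated WT and 1.18 to 2.61 in DTC. It was 161 to 294 CPM in DTEC and 38.9 to 48.3 in KO. NOTCH3 had its lowest level in DTC as well, and the part of such markers in the NOTCH3 and HEY1 results was not tested. The 4 basal markers did not move together in DTC. TP63 (2.94, adjusted p 5.18e-07) and KRT14 (1.02, adjusted p 0.0431) were higher than in untreated WT. KRT5 was lower (-1.08, adjusted p 1.17e-05) and KRT15 was not called (0.16, adjusted p 0.348). The 4 endothelial markers did not move together either. PECAM1 was at 32.0 CPM for untreated WT and 8.77 for DTC (-1.87, adjusted p 4.43e-09), while VWF was at 0.122 and 1.57 CPM (3.64, adjusted p 2.88e-05). The untreated WT level of VWF was near the floor of 3 counts. In DTEC PECAM1 was at 92.1 CPM, and in KO at 48.4. CDH5 was not called in any of the 4 comparisons, and KDR was at 0.584 CPM or less. The 5 ciliated cell markers summed to 4.12 to 7.22 CPM in untreated WT and 3.38 to 8.24 in DTEC, and they moved differently there. FOXJ1 rose from 0.117 to 1.62 CPM (3.79, adjusted p 0.000746) and TPPP3 from 0.0642 to 0.481 CPM (2.9, adjusted p 0.00695). The untreated WT levels of both were near or below the floor of 3 counts, so the size of these rises is uncertain. MCIDAS fell from 2.93 to 1.08 CPM (-1.43, adjusted p 0.0019) and CCNO was not called (-0.13, adjusted p 0.77). GMNC was at 0.0421 CPM or less in the 4 groups. The fibroblast list summed to 7.99 to 8.91 CPM in untreated WT and 54.9 to 57.6 in DTC, through COL1A1, with COL1A2, DCN and LUM at 0.430 CPM or less.

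Genes with the most similar course over the 12 libraries were sought among 9793 other genes of at least 10 CPM, by the root mean square difference of log2 CPM after centring each gene on its own mean. This is a description of these libraries. The nearest to HES1 were MLF2 (0.063) and ARAF (0.08), and the nearest to NOTCH2 were DIP2B (0.066) and HIPK1 (0.07). NOTCH1 was followed most closely by GTPBP3 (0.102) and POLRMT (0.117), and NOTCH3 by UNC5B (0.19) and EEPD1 (0.192). Of the ligands, JAG1 had EFNB2 (0.143) and CCNE1 (0.149) and JAG2 had CACTIN (0.079) and REXO1 (0.088). NRARP was nearest to MARS2 (0.167) and ASB13 (0.181), and HEY1 to GJB2 (0.149) and UBXN10 (0.228). HES4 had no near neighbour, its closest being SERTAD1 (0.537) and SCAND1 (0.548).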

How the data were processed

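The deposited values were expected counts, estimated reads per gene and library with no scaling to depth. The submitters' processing notes name RSEM 1.3.1, Bowtie2 2.5.2, DESeq2 1.40.2 and GRCh38; annotation release and filters are not given in the sources used here. Per the labels, polyadenylated RNA was read as 101 bp pairs from a stranded kit. Values were rounded to whole numbers. The analysis used edgeR 4.0.16 under R 4.3.3: filterByExpr by group (17115 genes, 99.89% or more of each library), TMM scaling, 1 mean per group over all 12 libraries, robust dispersions and quasi-likelihood F tests, called at a Benjamini-Hochberg adjusted p under 0.05. Alternatives covered scaling, filtering, DESeq2 1.42.0, the compared groups alone, the replicate number as a block and each library left out; GC offsets and leaving out untreated WT and DTC replicate 1 together were added after the data had been seen, as were receptor and ligand shares. Symbols came from a table of gene names, coordinates, exon lengths and GC from GENCODE 29. The fit was tried on simulated counts of 17115 genes, with known changes placed in the DTC libraries alone. It recovered 73.9% of 92 genes changed by 1 log2 unit and 85.1% of 94 changed by 2, and called 0.0976% of unchanged genes. Few genes were changed there, while 67.3% were called in the real DTC comparison, so the simulation does not test the scaling. The members and lists were chosen with earlier results of these data known. All 10 members were named; of each pathway role up to 2 called genes with the largest change in DTC and DTEC, and up to 4 over the list in the other comparisons; and 2 genes of most similar course per member.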

Additional observations from a re-analysis of the deposited data

Results flagged for a closer look

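The levels of 4 of the 9 tested Notch genes differed between 7 and 28 days of erlotinib, by the direct edgeR comparison of DTEC with DTC. Of all tested genes 55.4% were called in that comparison, so such a difference is not particular to these genes. Values are on the log2 scale. Time on drug and time in culture cannot be told apart in this comparison. The differences were 1.77 for NOTCH3, 2.33 for HEY1, 1.09 for NRARP and -2.95 for HES4. HEY1 was called lower than untreated WT at 7 days and higher at 28 days, while NRARP was below untreated WT at both times. The HES4 value includes DTC replicate 1, in which HES4 was at 1.12 CPM beside 9.01 and 8.06 in the other DTC libraries, and without that library it was -3.45.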

How the results depend on the processing

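Of 36 values (9 tested genes in 4 comparisons), 19 kept their direction and their side of the threshold under all 17 alternatives, 14 lost or gained a call under at least 1, and 5 changed sign under at least 1. The sign changes were all in values that were not called. In DTEC against DTC, NOTCH2 was -0.0145 and JAG1 -0.0874 with total counts only, and HES1 -0.133. With upper-quartile factors JAG1 was -0.0712 and HES1 -0.121, and HES1 was -0.0138 with at least 1 CPM in 3 libraries. NOTCH2 ranged from -0.024 to 0.45, JAG1 from -0.0859 (without DTC replicate 2) to 0.29 and HES1 from -0.0433 (without DTC replicate 1) to 0.10 when single libraries were left out, JAG1 being -0.0391 without DTEC replicate 1 and HES1 -0.023 without DTEC replicate 3. Without both libraries that stand apart HES1 was -0.0448. In KO, NOTCH1 was -0.00266 with GC offsets, between -0.051 (without untreated WT replicate 1) and 0.38 when single libraries were left out, and -0.0551 without both libraries that stand apart, and NRARP was -0.169 with GC offsets and -0.16 with GC offsets and the replicate block.

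Without both libraries that stand apart, 7 Notch genes were called in DTEC against DTC in place of 4. The count over all genes rose as well, from 9480 to 10823. In KO, GC offsets left 1 Notch gene called with or without the replicate block, and leaving out single libraries gave 0 to 2. The KO count over all genes was 738, 1147 with no count filter, 2656 with the 2 groups alone, 1153 in DESeq2 and 321 to 426 without single libraries. Of the other pathway genes 3 were called in KO, 7 with no count filter, 14 with the 2 groups alone, 6 in DESeq2 and 5 with GC offsets and the replicate block. The cause of these changes was not tested.

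Total counts only moved the median of all genes by 0.35 in DTC, 0.17 in DTEC and -0.19 in DTEC against DTC, and upper-quartile factors by 0.29, 0.11 and -0.17 in the same order. The percentage of higher ones among the calls went from 50.5% to 68.4% and 65.0% in DTC, from 49.7% to 63.7% in DTEC, from 51.9% to 37.4% and 38.7% in DTEC against DTC, and from 64.1% to 78.8% with total counts only in KO. Directions are relative to the TMM reference.

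The replicate number as a block gave 11775, 9255, 9732 and 887 called genes in the 4 comparisons, in place of 11520, 8955, 9480 and 738, and the 1 Notch call it changed was NOTCH2 in DTC (-0.44, adjusted p 0.0244). The deviations of same-numbered libraries had correlations of -0.03 to 0.179, and those of differently numbered libraries -0.187 to 0.118. All pairs of replicate 1 libraries were positive, at 0.053 to 0.179. The main fit did not pair the cultures by number, and what the numbers stand for was not tested. DLL1 was too low to test in the fit of all libraries.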
